A study of Mus musculus with 27 samples.

Results

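Transcripts of dividing cells differed widely between hearts in myocardium away from the infarct, and the libraries richest in them were set against the poorest. The libraries were chosen by measured values. All 14 remote libraries were ranked on a score, the mean log2 CPM (counts scaled to a common library total) of Mki67, Top2a, Cdk1, Ccna2 and Birc5, and the 5 highest and 5 lowest were taken out of 27 libraries in the series. They are called the high and the low libraries here, and the 4 between them the middle libraries.

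The mice were male ApoE-/- animals on C57BL/6J, a strain that lacks apolipoprotein E and has raised blood cholesterol, and all had a myocardial infarction 7 days before the heart was taken. All ate western diet, at first alone for 4 weeks. Mice with chronic kidney disease (CKD) then had adenine in it, at 0.3% for 10 days and at 0.15% for the last 11 days, of which 4 preceded the infarction. Controls stayed on western diet without adenine, so no uninfarcted mouse, no other genotype and no female was compared. RNA came from frozen pieces of whole tissue, from 6 control and 8 CKD mice for the remote region, each library from a different mouse. For 9179, the title of the remote sample gives CKD and its treatment field gives control, and the title was followed.

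Ranking left both diets on both sides. The high libraries were those of control mice 9180, 9171 and 9183 and CKD mice 9175 and 9173. The low ones came from control mice 9184 and 9182 and CKD mice 9174, 9177 and 9179. Values below are given in the order 9180, 9175, 9171, 9173 and 9183 for the high libraries and 9184, 9174, 9182, 9177 and 9179 for the low ones. Library 9180 stood apart from the rest, so results that rest on it are also given without it. Total counts were 17928248 to 42566498 in the high and 17699794 to 31913428 in the low libraries. Mitochondrially encoded genes took 12.7% to 20.8% of the counts in the high libraries and 15.0% to 20.9% in the low ones.

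A dividing cell passes from growth (G1) through DNA synthesis (S) to mitosis (M) and cytokinesis. E2F factors switch on the genes of DNA synthesis, and B-Myb and FoxM1 with the MuvB complex switch on those of mitosis later. In the adult heart cardiomyocytes rarely divide, while fibroblasts, macrophages and endothelial cells can do so after an infarct. In resting cells the DREAM complex holds many genes of mitosis silent through a promoter element called CHR, often beside CCAAT boxes that bind NF-Y. The promoters below show where a single spelling of each element lay in genes of the score and in the cyclin B genes, which moved together with the score. They are the 120 bases before the transcription start, from RefSeq on GRCm38.p6, a build earlier than that of the submitters' notes. Capitals mark the CHR letters TTTGAA and the CCAAT box, each also read on the other strand as TTCAAA and ATTGG. The motifs can share 1 base where they abut.

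Mki67 (chr7:135716380-135716499, minus strand): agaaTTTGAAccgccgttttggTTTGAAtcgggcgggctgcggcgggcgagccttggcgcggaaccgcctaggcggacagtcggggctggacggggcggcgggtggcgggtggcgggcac
Top2a (chr11:99024190-99024309, minus strand): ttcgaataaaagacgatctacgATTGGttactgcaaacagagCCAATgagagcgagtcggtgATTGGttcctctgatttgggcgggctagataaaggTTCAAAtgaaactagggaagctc
Cdk1 (chr10:69352913-69353032, minus strand): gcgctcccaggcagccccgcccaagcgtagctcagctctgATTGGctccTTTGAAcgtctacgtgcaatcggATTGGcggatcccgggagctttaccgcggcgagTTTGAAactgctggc
Birc5 (chr11:117849117-117849236, plus strand): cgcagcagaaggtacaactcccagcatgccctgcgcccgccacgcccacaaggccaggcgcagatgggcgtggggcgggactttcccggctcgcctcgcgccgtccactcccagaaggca
Ccnb1 (chr13:100786487-100786606, minus strand): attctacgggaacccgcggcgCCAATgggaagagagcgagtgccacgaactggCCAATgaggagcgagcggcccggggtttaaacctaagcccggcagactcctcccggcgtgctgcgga
Ccnb2 (chr9:70421555-70421674, minus strand): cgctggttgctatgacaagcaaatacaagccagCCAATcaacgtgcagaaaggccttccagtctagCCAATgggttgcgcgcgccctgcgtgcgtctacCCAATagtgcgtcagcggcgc

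Over 250 bases before each start, Top2a held 2 CHR and 6 CCAAT matches, and Mki67 and Cdk1 each held 2 CHR and 3 CCAAT matches. Ccnb2 held 1 CHR and 3 CCAAT matches, Ccnb1 held 2 CCAAT matches, and the window of Birc5 held neither set of letters. Among 36 promoters of 35 genes on a fixed list of mitotic entry and spindle genes, 26 (72.2%) held CCAAT and 8 (22.2%) held CHR. For 13 promoters of cytokinesis and chromosome condensation genes, 9 (69.2%) held CCAAT and 7 (53.8%) held CHR. Of 32 promoters of DNA replication genes, 19 (59.4%) held CCAAT and 3 (9.38%) held CHR. Over 13920 promoters of all genes tested in the remote libraries, 34.8% held CCAAT and 10.9% held CHR. These are matches of exact letters and not measured binding. Other spellings of the elements were not searched for, so a promoter without a match is not shown to lack the element.

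The score ran from 4.02 to -0.48 log2 CPM. In rank order the high libraries had scores of 4.02, 3.44, 3.24, 3.23 and 2.43, a mean of 3.27 ± 0.57 (SD, n = 5). The low libraries had 0.71, 0.13, -0.01, -0.03 and -0.48, a mean of 0.06 ± 0.43 (SD, n = 5). The middle 4 lay between 1.73 and 2.02. The last library inside the high group, 9183 at 2.43, was close to the first one outside it, 9178 at 2.02, whereas 1.73 in 9172 and 0.71 in 9184 bounded the low group. The same 5 and 5 libraries were chosen with DESeq2 size factors, with the other cell cycle lists in place of the 5 genes, and with each of the 5 genes left out.

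Mki67, the nuclear antigen Ki-67 of cycling cells, was at 17.3, 11.6, 8.44, 10.2 and 7.48 CPM in the high libraries. It was at 2.14, 1.46, 1.08, 0.81 and 0.871 CPM in the low ones, on 38 reads or fewer. Top2a, the topoisomerase that untangles replicated chromosomes, averaged 16.5 ± 7.28 CPM against 1.44 ± 0.713 CPM (SD, n = 5 each). Cdk1, the kinase that drives entry into mitosis, averaged 11.9 ± 5.16 against 1.07 ± 0.383 CPM. Its partner cyclin A2, Ccna2, averaged 8.33 ± 2.93 against 0.819 ± 0.375 CPM. Birc5, the survivin subunit of the chromosomal passenger complex, averaged 6.25 ± 2.64 against 0.724 ± 0.354 CPM. These genes made the groups, so their differences are a description and were given no test.

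**Figure D1:**
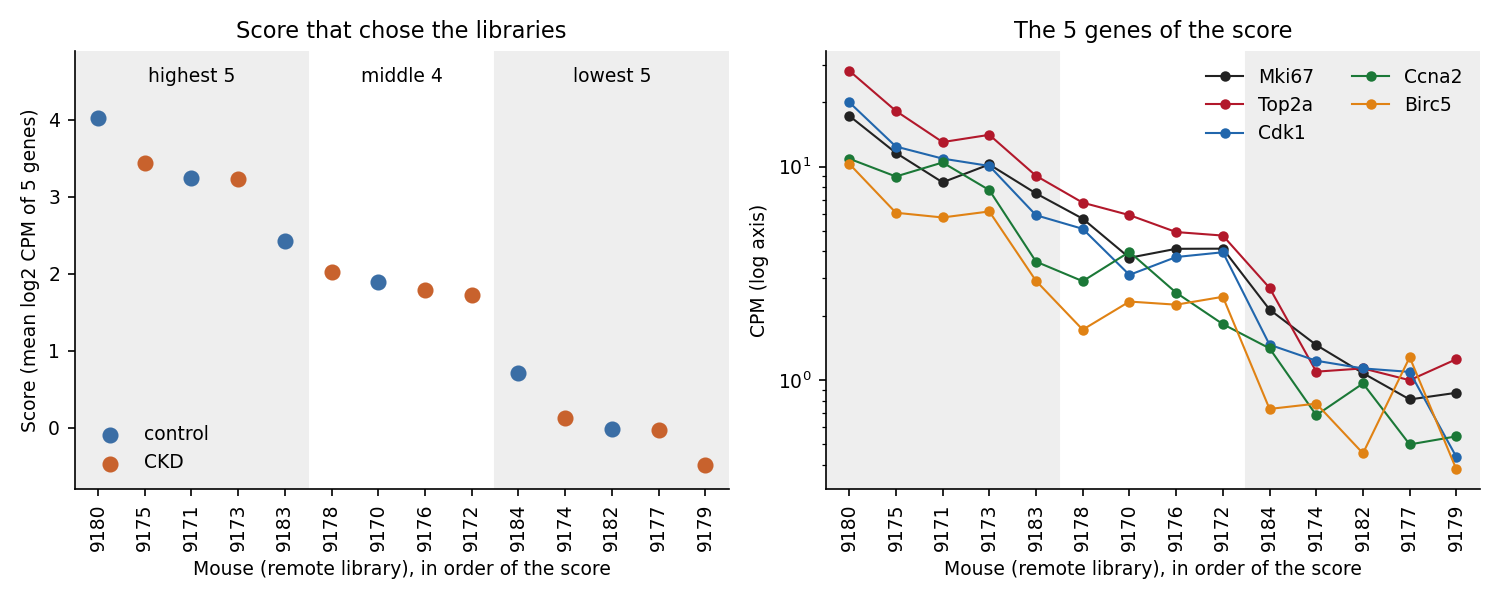
The left panel plots the score of each remote library (mean log2 CPM of 5 genes) in rank order, and the right panel the CPM of each gene on a log axis. Grey bands hold the high and low libraries, blue is control and orange is CKD. Both colours occur in both bands, and the 5 genes run from 17.3 and 28.1 CPM for Mki67 and Top2a in 9180 down to about 1 CPM or less in the low libraries.

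All other expressed genes were then compared between the high and low libraries. Of 13847 genes tested besides the score genes, 754 (5.45%) were higher and 116 (0.838%) lower in the high libraries by edgeR's quasi-likelihood test at an adjusted p under 0.05, which is what called means below. Without 9180, 725 of 13896 (5.22%) were higher and 138 (0.993%) lower. These shares over all genes are the ones to hold beside each count of called list members below. Of the 754 higher genes 665 (88.2%) were called again without it, which is 91.7% of the 725. Of the 116 lower genes 83 (71.6%) were, which is 60.1% of the 138. The median log2 difference over all genes was -0.02. Groups did not overlap, with every high library above every low one, in 1003 genes (7.24%), and with every high library below in 390 (2.82%). Because measured transcripts made the groups, these p-values rank how well a gene separates libraries sorted on 5 cell cycle genes and are no test of a treatment. For genes of the same cell cycle program the counts called are a description and support nothing.

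**Figure D2:**
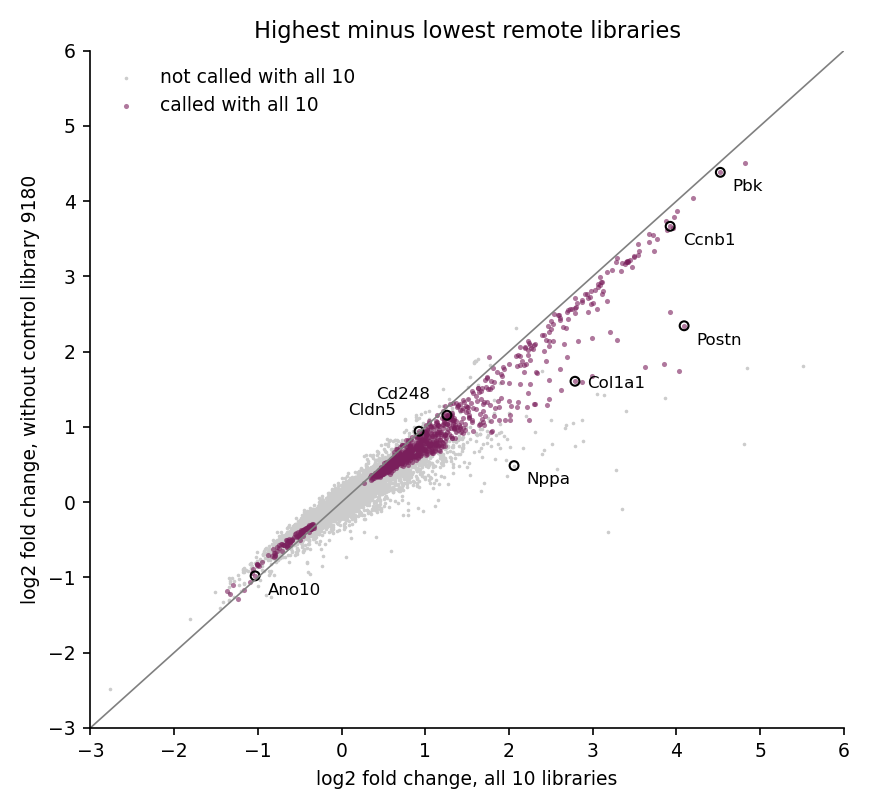
Each point is a gene outside the score, with the log2 difference between high and low libraries from all 10 libraries on the x axis and without control library 9180 on the y axis. Purple points were called with all 10. Cell cycle genes such as Pbk and Ccnb1 lie near the diagonal (4.53 and 4.38 for Pbk), while Postn (4.09 and 2.34), Col1a1 (2.79 and 1.61) and Nppa (2.06 and 0.49) lie below it.

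Genes that govern the step from G1 to S moved in part. Of 16 tested, 5 were called higher and none lower (6 and 0 without 9180), with a median log2 difference of 0.78 (0.54 without 9180). The 5 were the E2F factors E2f1, E2f2, E2f7 and E2f8 and the pocket protein Rbl1, themselves E2F targets. E2f1 was at 11.8, 9.47, 7.05, 7.76 and 5.06 CPM in the high and 1.91, 2.10, 1.87, 1.71 and 1.03 CPM in the low libraries, a log2 difference of 2.25 ± 0.25 (SE). E2f7, a repressor that ends the E2F wave, averaged 4.06 ± 0.46 against 1.74 ± 0.315 CPM. Outside the naming rule, and chosen after their values were seen, stand the cyclins that act before E2F. Ccnd1 averaged 88.1 against 48.7 CPM and was called only without 9180 (log2 difference 0.95, adjusted p = 0.029, against 0.85 and 0.053 with it). Ccnd2 averaged 116 against 119 CPM. Myc averaged 6.70 against 3.95 CPM (adjusted p = 0.13).

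DNA replication genes were higher in part. Of 32, 21 were called higher and none lower (17 without 9180), with a median log2 difference of 0.92 (0.90 without 9180). Mcm3, a subunit of the replicative helicase, was at 26.7, 25.8, 18.3, 21.9 and 13.1 CPM in the high libraries and 7.65, 8.02, 8.32, 10.5 and 5.55 CPM in the low ones. The groups did not overlap, and the middle libraries, at 13.5 to 14.2 CPM, lay above the low libraries and just above the lowest high library. Uhrf1, which carries DNA methylation through replication, averaged 12.6 ± 4.71 against 2.07 ± 0.787 CPM. Rrm2, the regulated subunit of ribonucleotide reductase, averaged 9.24 ± 3.24 against 2.03 ± 0.566 CPM. Cdc6, which loads the helicase, averaged 3.5 ± 0.804 against 1.0 ± 0.332 CPM.

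Mitotic genes showed the largest list median among the cell cycle lists. Of 42 genes 40 passed the filter on low counts and 38 were called higher both with and without 9180, with a median log2 difference of 2.95 and 2.72. The B cyclins are the mitotic partners of Cdk1. Ccnb1 was at 8.46, 6.15, 5.59, 3.36 and 1.70 CPM in the high libraries and 0.90, 0.182, 0.396, 0.156 and 0.109 CPM in the low ones, a log2 difference of 3.93 ± 0.56 (SE). Ccnb2 averaged 8.31 ± 3.48 against 0.655 ± 0.307 CPM. Pbk, a mitotic kinase, averaged 4.47 ± 1.63 against 0.198 ± 0.0995 CPM, a few reads in each low library. Cdca8, the borealin partner of Birc5, averaged 6.68 ± 2.36 against 0.624 ± 0.155 CPM. Bub1b of the spindle checkpoint averaged 8.35 ± 1.88 against 1.76 ± 0.259 CPM, and the ubiquitin-conjugating enzyme Ube2c 8.55 ± 3.16 against 0.795 ± 0.293 CPM. The 2 tested members that were not called, named after their values were seen, were the centromere genes Cenpa (41.2 against 39.4 CPM) and Cenpf (11.2 against 14 CPM).

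The machinery of cytokinesis and chromosome condensation had 12 of 15 tested genes called higher, with and without 9180, and a median log2 difference of 1.54 and 1.32. Anln, which shapes the cleavage furrow, was at 8.87, 6.19, 6.89, 4.79 and 4.12 CPM against 1.07, 0.547, 1.02, 0.81 and 0.599 CPM. Racgap1 of the centralspindlin complex averaged 13.04 ± 4.22 against 1.99 ± 0.398 CPM. Cit, a kinase of the midbody, averaged 7.92 ± 1.10 against 3.35 ± 0.286 CPM. Stmn1, which destabilises microtubules, averaged 45.8 ± 13.3 against 15.1 ± 2.32 CPM.

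Outside the fixed lists, 12 genes with the smallest p among the higher ones were picked by rule, of which several are described here. Pimreg averaged 8.11 ± 2.81 against 0.565 ± 0.238 CPM, Kifc1, a mitotic kinesin, 8.72 ± 2.69 against 1.23 ± 0.409 CPM, and Cep55, which acts in the final cut between daughter cells, 2.78 ± 1.36 against 0.172 ± 0.0429 CPM. Iqgap3, a scaffold of the cytoskeleton, averaged 10.8 ± 2.73 against 1.11 ± 0.603 CPM, and Mxd3, a partner of Max, 5.32 ± 2.03 against 0.35 ± 0.224 CPM. The histone genes Hist1h2ap (17.8 against 1.61 CPM) and Hist1h2ao (17.9 against 1.66 CPM) belong to a family of near-identical copies, so how reads were shared between them is uncertain. Mall, a membrane protein of the MAL family, was at 20.5, 22.7, 21.1, 21.8 and 17.5 CPM in the high and 10.3, 10.0, 10.2, 9.69 and 9.90 CPM in the low libraries. The low libraries differed little in it (SD 0.238 CPM), and its log2 difference was 1.04 ± 0.09 (SE, adjusted p = 0.00021).

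Inhibitors of the cycle did not move one way. Of 18 genes 3 were called higher and 1 lower (2 and 1 without 9180), with a median log2 difference of 0.04 (0.01 without 9180). Over all genes 5.45% were called higher and 0.838% lower (5.22% and 0.993% without 9180). Cdkn1a, the p21 inhibitor and a p53 target, was at 53.5, 38.9, 52.1, 40.4 and 39.9 CPM against 27.3, 35.6, 14.2, 20.5 and 29.1 CPM. Its log2 difference of 0.82 ± 0.21 (SE) was called with 9180 (adjusted p = 0.0405) and not without it (0.76, adjusted p = 0.0571). Trp53 itself averaged 35.9 ± 4.03 against 23.3 ± 2.97 CPM (log2 difference 0.62 ± 0.11 SE, adjusted p = 0.0099). Cdkn2c, the p18 inhibitor of Cdk4 and Cdk6, averaged 20.7 ± 4.78 against 11.8 ± 2.74 CPM with overlapping groups (adjusted p = 0.033). Cdkn1c, the p57 inhibitor, was the member lower in the high libraries, at 10.8, 13.1, 10.8, 13 and 17.2 CPM against 21.2, 20.6, 25.1, 17.3 and 17.3 CPM (log2 difference -0.66 ± 0.15 SE, adjusted p = 0.027). Of 9 tested targets of DNA damage and p53, 3 were called higher, Cdkn1a, Phlda3 and Eda2r (2 without 9180), with a median log2 difference of 0.36 (0.26 without 9180). Cdkn1a is on this list and on that of the inhibitors and counts in both. Phlda3 averaged 33.8 ± 16.02 against 15.9 ± 2.46 CPM and Eda2r 3.27 ± 0.69 against 1.74 ± 0.265 CPM.

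**Figure D3:**
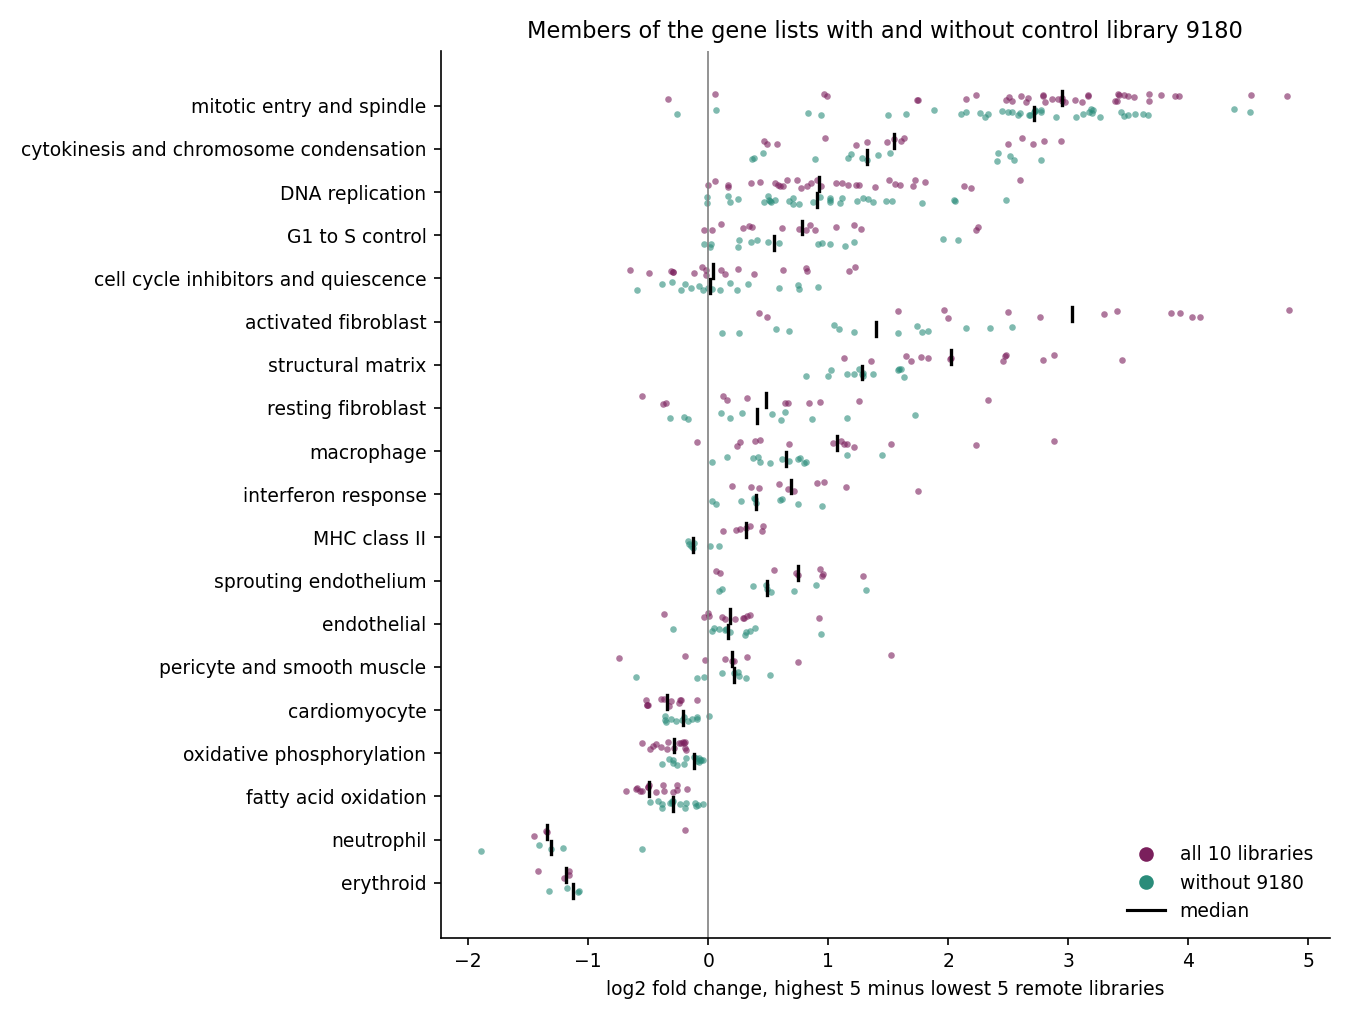
Each point is the log2 difference of 1 list member between the high and low libraries, from all 10 libraries (purple) or without control library 9180 (green), and black bars are list medians. The median of mitotic genes is 2.95 with and 2.72 without 9180, while that of activated fibroblast genes goes from 3.03 to 1.40 and MHC class II genes from 0.31 to -0.13.

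Genes called higher were not only those of the fixed cell cycle lists: 79 of the 754 belonged to these lists and 675 did not. Some of the 675 also act in cell division, as Kifc1 and Cep55 above do, so 675 is not a count of genes outside the cycle. Fibroblasts make and turn over the collagen scaffold of the heart, and after injury some become matrix-producing cells that express periostin. In whole tissue, more cells of a type and more RNA per cell cannot be told apart, which holds for every marker list here. Of 12 resting fibroblast genes 5 were called higher with and without 9180, with a median log2 difference of 0.48 and 0.41. Cd248 (endosialin) was at 54.6, 33.6, 37.8, 40.3 and 46.5 CPM against 17.1, 16.5, 22, 15.4 and 17.6 CPM, with the middle libraries at 21.5 to 23.3 CPM. Its log2 difference was 1.26 ± 0.14 (SE, adjusted p = 0.00044) and 1.16 ± 0.12 without 9180. Pi16, a marker of adventitial fibroblasts, was at 161, 154, 171, 184 and 186 CPM against 109, 110, 94.9, 74.3 and 87.3 CPM. Its log2 difference was 0.84 ± 0.12 and, without 9180, 0.87 ± 0.12 (SE, adjusted p = 0.0022 and 0.0014). Mfap5, a microfibril protein, was at 267 CPM in 9180 and 60.7 to 101 CPM in the other high libraries against 17 to 25.9 CPM (log2 difference 2.33 ± 0.40, and 1.72 ± 0.17 without 9180). Dpt (dermatopontin) averaged 155 ± 28.3 against 97.1 ± 3.27 CPM.

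The mean log2 CPM of the 12 resting fibroblast genes was 6.30 to 6.62 in the high and 5.92 to 6.06 in the low libraries, without overlap, whereas their summed CPM overlapped (1966 to 2772 against 2233 to 2456). With that mean as a covariate no gene was called with all 10 libraries by edgeR, 601 genes had an unadjusted p under 0.05, and 52 genes were called without 9180. Since the groups do not overlap in this mean, such a fit can hardly separate it from the group, and lost calls do not show that differences went away. The list medians in it were 3.50 for mitotic genes (3.31 without 9180), 1.61 for DNA replication (1.5), 1.92 for cytokinesis (1.78), 2.61 for activated fibroblast genes (0.29) and 1.33 for structural matrix (0.25). Beyond these fits the part of fibroblast content in the other differences was not tested.

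Most structural matrix genes were higher in the high libraries. The groups did not overlap in any called member, where 7.24% of all genes had every high library above every low one. Called members were picked for their difference in the same libraries, so their lack of overlap is a description and adds no support. Of 14 tested structural matrix genes 13 were called higher, with and without 9180, and the median log2 difference was 2.02 with it and 1.28 without. The tested member that was not called with all 10 libraries, named after its values were seen, was Col12a1 (adjusted p = 0.052). Col1a1, a chain of type I collagen, was at 3569, 298, 440, 274 and 939 CPM against 169, 197, 151, 102 and 177 CPM. Library 9180 was far above the next highest, 9183. The log2 difference was 2.79 ± 0.67 (SE, adjusted p = 0.033) with 9180 and 1.61 ± 0.33 (adjusted p = 0.012) without it. Col3a1 averaged 1359.9 ± 1389.5 against 244 ± 46.8 CPM, and Sparc, a collagen-binding glycoprotein, 1679 ± 1257 against 470 ± 56.4 CPM. Bgn (biglycan) was at 1521, 517, 599, 445 and 485 CPM against 219, 227, 194, 224 and 181 CPM, and its log2 difference without 9180 was 1.29 ± 0.11 (SE, adjusted p = 8.03e-05). Fbn1 (fibrillin-1) averaged 205 ± 131 against 63.5 ± 8.90 CPM.

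Most activated fibroblast genes were higher by far in 9180 than in the other high libraries, as for Cthrc1 (138 CPM against at most 11.9 CPM) and Thbs4 (356 against at most 30.9 CPM), named after their values were seen. Acta2 (smooth muscle actin) was not, at 299 CPM against at most 284 CPM. Of 14 tested 6 were called higher (5 without 9180), and the median log2 difference went from 3.03 to 1.40. Postn (periostin) was at 1276, 80.6, 74.4, 58.5 and 186 CPM against 14.7, 16.9, 12.9, 9.91 and 43.9 CPM, with the highest low value in CKD mouse 9179. The groups did not overlap, and the log2 difference was 4.09 ± 0.92 (SE, adjusted p = 0.026), or 2.34 ± 0.44 without 9180 (adjusted p = 0.0079). Meox1, a transcription factor of activated fibroblasts, was at 118, 50.8, 49.5, 36.1 and 38 CPM against 18.6, 17.9, 14.1, 9.44 and 13.1 CPM. Cilp averaged 117 ± 144 against 11.9 ± 4.76 CPM, and Tnc (tenascin C) 34.9 ± 48.6 against 2.32 ± 1.11 CPM. Genes outside the naming rule, chosen after their values were seen, were also called: without 9180 the log2 difference was 1.26 for Vim (vimentin), 1.57 for Fstl1 and 1.12 for Loxl1, a collagen cross-linking enzyme.

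Cardiomyocyte transcripts ran lower in the high libraries, most of all in 9180, with overlap between the groups. The mean log2 CPM of 12 cardiomyocyte genes was 11.13 in 9180, 11.91 to 12.11 in the other high libraries and 12.06 to 12.28 in the low ones. With it as a covariate 150 genes were called with all 10 libraries and 62 without 9180, the median of the activated fibroblast list was 0.12 and 0.62, and that of the mitotic list 2.51 and 2.96. Beyond these fits the part of cardiomyocyte content in the differences was not tested.

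**Figure D4:**
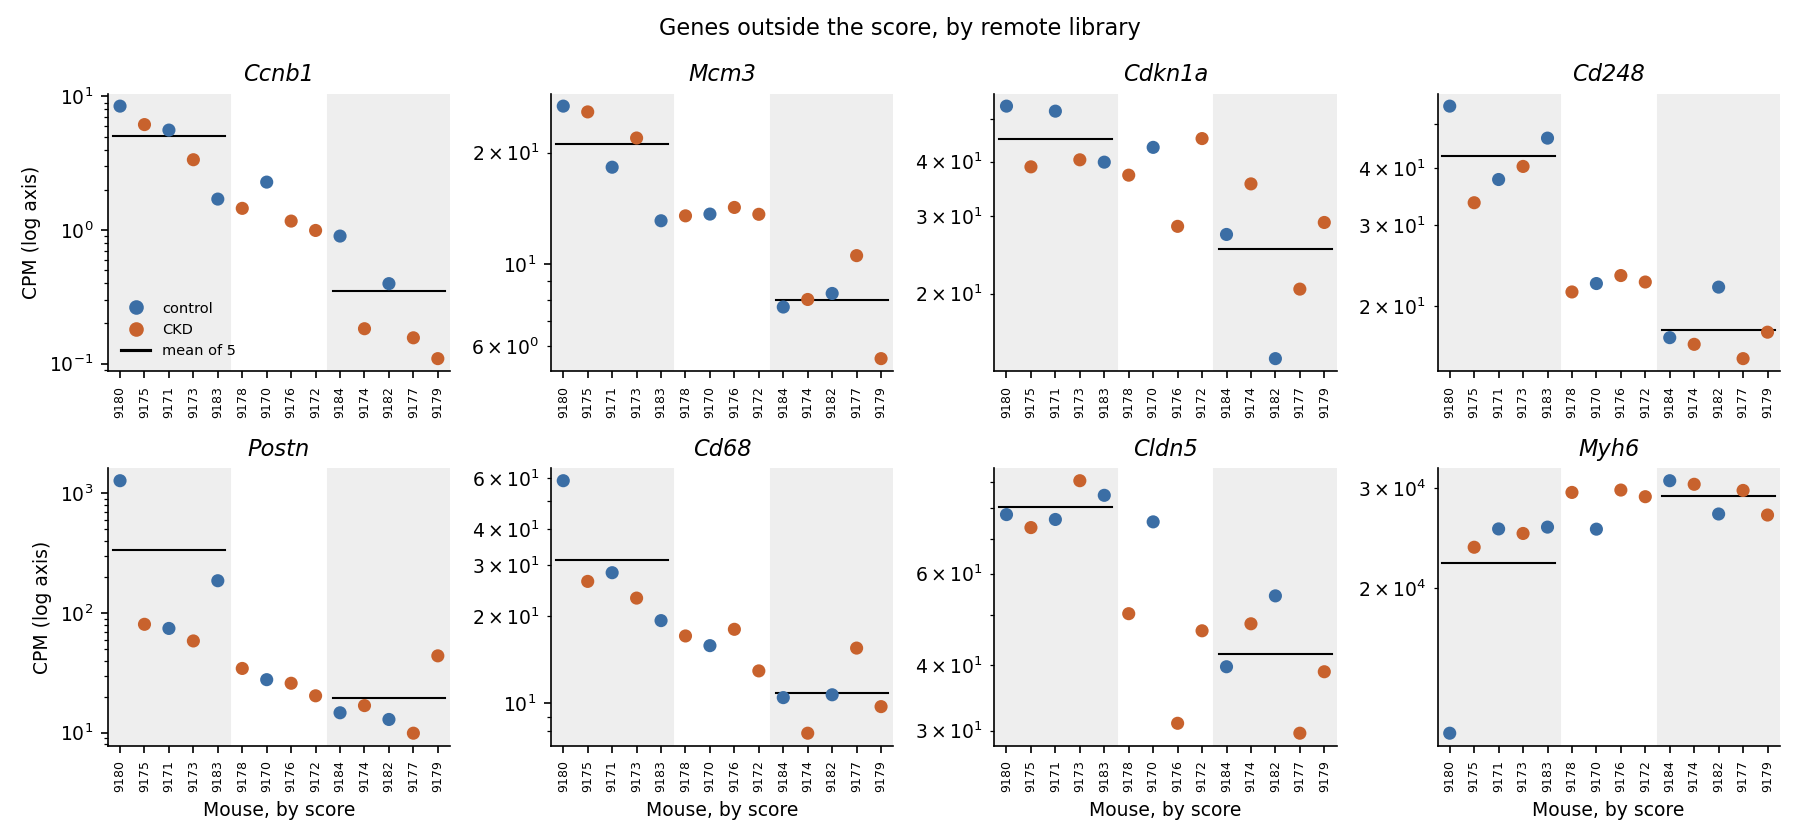
CPM (log axis) of 8 genes outside the score in the 14 remote libraries in order of the score; blue is control, orange is CKD, black lines are means of 5 libraries and grey bands the high and low groups. Cd248 and Cldn5 in the high libraries lie close together, at 33.6 to 54.6 and 73.5 to 90.3 CPM, whereas Postn in 9180 is at 1276 CPM and Myh6 there at 11073 CPM.

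Macrophage genes followed in part. Of 14 tested 6 were called higher (7 without 9180), with a median log2 difference of 1.07 and 0.65, and their summed CPM was 535 to 1317 in the high against 311 to 466 in the low libraries. Cd68, a lysosomal protein, was at 58.8, 26.4, 28.3, 23.1 and 19.3 CPM against 10.5, 7.88, 10.7, 15.5 and 9.74 CPM. Its log2 difference was 1.52 ± 0.29 (SE, adjusted p = 0.012), and 1.15 ± 0.17 without 9180 (adjusted p = 0.0020). The complement genes C1qa (202 ± 88.5 against 97.9 ± 14.1 CPM) and C1qc (149 ± 64.8 against 69 ± 10.3 CPM) were also called. Trem2, a lipid-sensing receptor, was at 56.7, 9.43, 11.7, 11.3 and 17.8 CPM against 4.16, 4.15, 3.96, 6.39 and 4.03 CPM. Adgre1 (F4/80), the usual marker, was at 58, 17.8, 28, 15.8 and 16.3 CPM against 11.1, 9.71, 12.6, 16.3 and 11.4 CPM, and missed the threshold (adjusted p = 0.0651, and 0.0535 without 9180).

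Other leukocytes gave few counts or no calls. None of the tested genes of the monocyte, neutrophil, dendritic cell, T cell, NK cell and B cell lists was called with or without 9180, and 5 of 8 neutrophil, 7 of 9 T cell and 6 of 6 NK cell genes averaged under 1 CPM over the 10 libraries. With all 10 libraries only 7, 4, 4, 2, 1 and 3 genes of these lists were tested. Over all genes 5.45% were called higher and 0.838% lower, so the absence of calls does not set these lists apart. S100a9 of neutrophils was at 1.41, 2.42, 0.515, 2.59 and 1.43 CPM against 2.48, 7.24, 0.793, 5.24 and 6.58 CPM, a log2 difference of -1.45 ± 0.54 (SE, adjusted p = 0.12). No gene of 7 for MHC class II was called, and their median changed from 0.31 to -0.13 on the log2 scale without 9180. Of 10 interferon response genes 2 were called higher (3 without 9180), where 5.45% of all genes were (5.22% without 9180), with a median log2 difference of 0.69 (0.39 without 9180). Isg15 averaged 16.2 ± 8.82 against 7.32 ± 0.815 CPM and Bst2 68.3 ± 29.9 against 36.3 ± 2.40 CPM.

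Vessel genes differed little as a list. Of 12 endothelial genes 1 was called higher, where 5.45% of all genes were, and the median log2 difference was 0.18 with and 0.16 without 9180. That gene was Cldn5, the tight junction claudin of endothelium, at 77.8, 73.5, 76.1, 90.3 and 84.7 CPM against 39.8, 48.1, 54.4, 29.7 and 38.9 CPM. Its log2 difference was 0.93 ± 0.15 (SE, adjusted p = 0.0043), and 0.94 ± 0.15 without 9180. Pecam1 (CD31) averaged 265 ± 28.3 against 211 ± 14.9 CPM, with overlap, and missed the threshold (adjusted p = 0.081). Of 9 genes of sprouting endothelium 2 were called with and without 9180, the tip cell peptide Apln and the basement membrane gene Nid2, and the median log2 difference was 0.75 (0.49 without 9180). Apln was at 26.4, 37.1, 32.3, 26 and 15.6 CPM against 11.9, 13.9, 11.4, 9.88 and 8.92 CPM, a log2 difference of 1.29 ± 0.21 (SE, adjusted p = 0.0044), and 1.31 ± 0.22 without 9180. Nid2 averaged 40.6 ± 8.57 against 21.3 ± 3.54 CPM. Single members of other lists were also called: Kit, on the mast cell list (10.2 ± 1.41 against 4.94 ± 1.96 CPM), and Pdpn, on the lymphatic list (12.98 ± 4.64 against 7.19 ± 1.53 CPM). Kit was 1 of 5 tested mast cell genes, of which 3 had log2 differences below 0 (median -0.04, and 0.18 without 9180). Pdpn was 1 of 7 tested lymphatic genes, of which 2 were below 0 (median 0.09, and 0.30 without 9180). Of 22 alternative fits, 8 did not call Kit and 12 did not call Pdpn. Abcc9, a potassium channel subunit on the pericyte list, was lower, at 51.6, 110, 93.5, 89.3 and 90.9 CPM against 140, 148, 140, 137 and 161 CPM (log2 difference -0.75 ± 0.16 SE, adjusted p = 0.024, and -0.60 ± 0.09 without 9180). It was 1 of 9 tested genes of the pericyte and smooth muscle list, of which 6 had log2 differences above 0 and 3 below. The median of that list was 0.19 (0.22 without 9180), and over all genes 0.838% were called lower.

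Among 18 tested mitogens and growth factors 2 were called higher with and without 9180, with a median log2 difference of 0.31 (0.22 without 9180). Over all genes 5.45% were called higher (5.22% without 9180), so these 2 calls do not set the list apart. Tgfb1, which drives matrix synthesis, was at 84.2, 62.2, 58.9, 62.9 and 56.9 CPM against 44.2, 39.8, 48.2, 41.8 and 34.3 CPM, a log2 difference of 0.64 ± 0.13 (SE, adjusted p = 0.0165), and 0.53 ± 0.10 without 9180. Igf1 averaged 31.8 ± 19.9 against 12.3 ± 2.16 CPM (log2 difference 1.37 ± 0.33 SE, adjusted p = 0.034, and 0.93 ± 0.20 without 9180).

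No cardiomyocyte gene of 12 was called. Their median log2 difference was -0.35 with and -0.21 without 9180. Myh6, the adult myosin heavy chain, was at 11073, 23606, 25434, 24968 and 25622 CPM against 30950, 30502, 27028, 29748 and 26914 CPM. Without overlap, its log2 difference was -0.40 ± 0.24 (SE, adjusted p = 0.32), and -0.22 ± 0.10 without 9180. Ryr2, the calcium release channel, averaged 730 ± 202 against 1041 ± 110 CPM (adjusted p = 0.13). All 15 genes of oxidative phosphorylation and all 15 of fatty acid oxidation had negative log2 differences, with medians of -0.28 and -0.49 (-0.12 and -0.29 without 9180). None of them was called with all 10 libraries, and 1, Ndufv1 of complex I, without 9180 (log2 difference -0.29 ± 0.08 SE, adjusted p = 0.048). Nppa (atrial natriuretic peptide) was at 1668, 48.1, 281, 80.8 and 208 CPM against 100, 296, 33.6, 86.4 and 32.6 CPM and was not called (adjusted p = 0.19). Its log2 difference was 2.06 ± 0.93 with 9180 and 0.49 ± 0.64 without.

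Several further lists had no called member with all 10 libraries. Genes of glycolysis had a median log2 difference of -0.04 over 12 tested, immediate early genes, which mark a recent stimulus, of -0.15 over 10, and mesothelial genes of -0.05 over 8. Erythroid genes, from red blood cells in the tissue, had a median of -1.18 over 4 tested (-1.13 without 9180), and neutrophil genes of -1.34 over 4 (-1.31 over 5 without 9180).

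Of the 116 lower genes 2, Cdkn1c and Abcc9, were on a fixed list. Ano10, of the anoctamin family, had the smallest p, at 22.9, 28.7, 26.6, 24.5 and 29.4 CPM against 42, 64.3, 68, 37.7 and 57.1 CPM (log2 difference -1.03 ± 0.16 SE, adjusted p = 0.0043). Scn10a, a voltage-gated sodium channel, averaged 0.953 ± 0.339 against 2.40 ± 0.474 CPM. Atcay (caytaxin) averaged 5.67 ± 1.94 against 13.8 ± 3.69 CPM. Differences of other lower genes were smaller, as for Klhl24 (102 ± 15.5 against 156 ± 9.89 CPM), Plxnb1, a semaphorin receptor (41.2 ± 9.04 against 66.3 ± 6.48 CPM), the kinase gene Tnik (11.2 ± 2.07 against 17.2 ± 1.23 CPM), and Mtrf1, a mitochondrial release factor (5.17 ± 0.879 against 8.95 ± 0.589 CPM). Each of these was called without 9180 as well. The count of lower genes depended on single libraries: it was 8 without 9179, 18 without 9174, 17 without 9182, 17 without 9184, 37 without 9177, 66 without 9173, 66 without 9175 and 808 without 9171, and 26 with diet as a covariate.

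Scores of the diets overlapped, from -0.01 to 4.02 log2 CPM in control and from -0.48 to 3.44 log2 CPM in CKD libraries. They averaged 2.05 ± 1.52 (SD, n = 6) and 1.48 ± 1.48 (SD, n = 8). In the fit of CKD against control over 14 libraries, 0 genes (0%) were called higher and 3 (0.0216%) lower of 13897, and none of the 126 tested genes of the score and the cell cycle lists. By edgeR 4 of those 126 had an unadjusted p under 0.05, and the lowest adjusted p was 0.28. The mitotic list had a median log2 difference of -0.65, CKD minus control, and -0.15 without 9180. The activated fibroblast list had -2.31, and -0.76 without 9180, with no member called in the fit of all 14. Its summed level was 4574 CPM in 9180, 317 to 910 CPM in the other controls and 179 to 545 CPM in CKD libraries. With 9179 counted as control, and with each library left out in turn, none of the genes of the score and the cell cycle lists was called. Other genes were, the lowest adjusted p by edgeR being 0.018 with 9179 counted as control.

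Within each diet the high against low difference was also fitted. Mitotic genes had a median log2 difference of 2.72 between 3 high and 2 low control libraries and of 2.96 between 2 high and 3 low CKD libraries. Structural matrix genes had medians of 2.61 and 0.82, and activated fibroblast genes 4.07 and 0.48. Without 9180 the control medians were 2.32 for mitotic, 1.62 for structural matrix and 2.09 for activated fibroblast genes. For Postn the log2 difference was 5.21 in control (3.22 without 9180) and 1.57 in CKD libraries, and for Cd248 it was 1.23 (1.09 without 9180) and 1.17. No gene of 13847 was called for a difference between the diets in these changes by edgeR, where 377 had an unadjusted p under 0.05. By edgeR 0 genes were called within controls, where 2369 had an unadjusted p under 0.05, and 81 within CKD libraries. Without 9180 these counts were 125 and 309. Both diets entered the same fit, so the count for the CKD libraries also depends on 9180, which is not among them. Their mitotic median was 2.96 with and without 9180.

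The infarct libraries of the same hearts were not used in the choice. Of the high mice 4 have an infarct library and of the low mice 5. The score in the infarct was 3.90, 4.44, 4.31 and 3.73 log2 CPM in mice 9180, 9175, 9171 and 9183, and 4.64, 3.97, 3.88, 3.36 and -0.12 in mice 9184, 9174, 9182, 9177 and 9179. Means were 4.10 ± 0.34 (SD, n = 4) and 3.15 ± 1.88 (SD, n = 5), and the difference of 0.95 did not pass an exact two-sided permutation test (p = 0.468, the smallest possible being 0.00794). The highest infarct score belonged to mouse 9184, of the low group. Mouse 9179 set most of the difference: without it the difference was 0.13 (exact permutation p = 0.69). Its infarct library had a mean log2 CPM of the cardiomyocyte genes of 12.6, against 7.69 to 11.7 in the other 8.

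Mki67 in the infarct was at 12.8, 14.7, 12.4 and 10.9 CPM in the high mice and at 22.3, 13.3, 10.8, 11.1 and 1.88 CPM in the low mice. Apart from 9179, these low mice had between 0.81 and 2.14 CPM of it in remote myocardium. Over 14560 genes none was called higher (0%) or lower (0%) between infarct libraries of high and low mice by edgeR, where 2539 had an unadjusted p under 0.05. DESeq2 called 15 higher and 57 lower. Mitotic genes had a median log2 difference of 0.49 there and structural matrix genes of 0.86. Markers of heart muscle moved further: all 12 cardiomyocyte genes were lower in the high mice (median -1.75), as were all 15 genes of oxidative phosphorylation (-1.37) and all 15 of fatty acid oxidation (-1.29), with none called. The part of muscle content in the infarct differences was not tested beyond a fit with the cardiomyocyte score as a covariate, in which 0 genes were called by edgeR and 286 had an unadjusted p under 0.05.

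Across the 13 mice with both regions, the score in remote and infarct tissue had a Pearson r of 0.44 (permutation p = 0.13) and a Spearman rho of 0.43 (p = 0.14), from a family of 10 coefficients in which the lowest adjusted p was 0.429. Without mice 9179 and 9180, which were farthest from the median remote score, r was 0.15 and rho 0.30. Leaving out the most extreme scores narrows their range, which can itself lower r, so this does not show that the coefficient rests on unusual mice. Without mice 9172 and 9179, r was 0.26 and rho 0.28. Within the 6 control mice r was -0.15 (permutation p = 0.79) and rho 0.086 (permutation p = 0.92). Within the 7 CKD mice r was 0.58 (permutation p = 0.17) and rho 0.75 (permutation p = 0.066, adjusted 0.429).

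**Figure D5:**
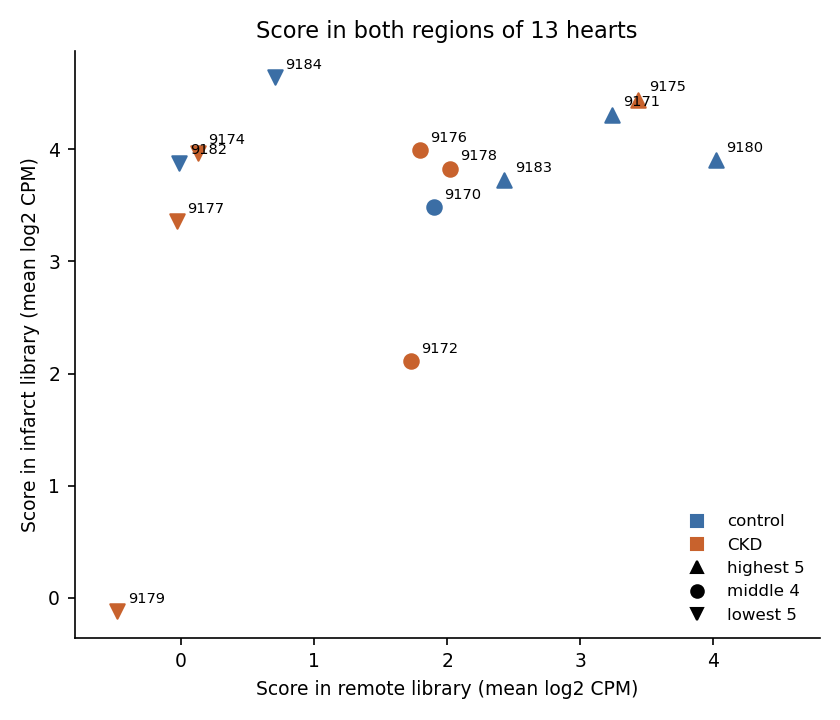
Score of the infarct library (y axis, mean log2 CPM) against that of the remote library (x axis) for 13 hearts. Colours give the diet and marker shapes the remote group. Infarct scores of 11 mice lie between 3.36 and 4.64 over remote scores of -0.03 to 4.02, and those of 9172 and 9179 are 2.11 and -0.12 at remote scores of 1.73 and -0.48.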

How the data were processed

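Bulk RNA was sequenced from 27 pieces of heart. The authors deposited counts for 27304 genes, which are whole numbers by their values. The submitters' processing notes name kallisto 0.48.0 and GRCm39; how transcripts were turned into genes is not given in the sources used here. Total counts ran from 17699794 to 42566498 in remote and from 14255456 to 29506790 in infarct libraries. P-values of the fits rest on the spread between mice within the groups compared. The high and low groups were chosen by measured values, so their spread is not that of unselected mice. Columns were matched to samples by library name, and 27 gene symbols that had become dates were restored from Ensembl IDs. After filterByExpr and TMM scaling, edgeR 4.0.16 (R 4.3.3) gave quasi-likelihood tests, adjusted by Benjamini-Hochberg over all genes at 0.05. The SE of a log2 difference was worked back from its test, as the absolute difference divided by the square root of the F statistic. Scores are mean log2 CPM with a prior count of 2. Alternatives used DESeq2 1.42.0, limma 3.58.1 with voom weights, other scalings, filters, covariates and left-out libraries. Fits within each diet, list medians of the diet comparisons without 9180, and DESeq2 in the infarct were added after the data were seen. The fits were tested on simulated data. No 2 libraries of a group were duplicates (chi-square per degree of freedom at least 9.03 over 43 remote and 18.7 over 36 infarct pairs).

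The libraries and gene lists were chosen with earlier results of these data known. Named genes are the score genes and 9 further set genes, up to 4 called members of each list by p (or 2 members of a list with no call), and, outside the lists, the top 12 genes by p in each direction and the top 8 called both with and without 9180. The text prints a selection.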

Additional observations from a re-analysis of the deposited data

Results flagged for a closer look

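Within each group of 5 remote libraries, named genes were searched for a library whose gap to the next was too large a part of the group's range (Dixon's test). The score within each diet and region was searched too. Of 170 groups of values 29 were so marked, 17 of them for control library 9180. Chance alone would mark about 1 in 20 of independent values. These genes vary together and many were named for separating the groups, so the count cannot be held against that rate. Values below are log2 CPM, with the nearest other library of the group in brackets.

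Library 9180 was the highest of the high libraries for these genes of fibroblasts and matrix: Meox1 6.88 (5.67), Bgn 10.57 (9.23), Sparc 11.93 (10.51) and Loxl1 8.34 (7.08). Vim at 10.19 (9.34), Igfbp7 at 9.7 (8.52), Emp1 at 8.81 (7.36) and the growth factor gene Tgfb1 at 6.40 (5.98) were highest there too. Library 9180 was also the highest for C1qc at 8.04 (7.06), Isg15 at 5.0 (3.78), Bst2 at 6.93 (5.85), Phlda3 at 5.96 (4.86) and Eda2r at 2.19 (1.69). It was the lowest for Myh6 at 13.43 (14.53), Ndufv1 at 8.76 (9.60), Abcc9 at 5.69 (6.48) and Atcay at 1.38 (2.52). Its mean over the cardiomyocyte genes was the lowest of the 14 remote libraries. The part of that in these values was not tested.

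Library 9183, the last of the high group by score, was lowest there for Rrm2 at 2.01 (3.20), Pbk at 0.91 (2.18), Iqgap3 at 2.63 (3.45) and Cdkn2c at 3.68 (4.37). In the low group, 9179, the last by score, was lowest for E2f1 at 0.16 (0.84), E2f7 at 0.35 (0.88), Racgap1 at 0.47 (1.09) and Trp53 at 4.20 (4.56), and highest for Tnc at 2.13 (1.04) and Igf1 at 4.01 (3.58). Library 9177 was highest there for Trem2 at 2.69 (2.09), and 9184 lowest for Isg15 at 2.60 (2.89).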

How the results depend on the processing

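The 870 genes called between high and low libraries became 885 with DESeq2 size factors, 909 with upper-quartile scaling, 727 without a filter and 827 with a filter at a mean of 1 CPM. They became 1660 with DESeq2 (1251 higher, 409 lower), 2077 with limma-voom (1216 and 861), 401 with diet as a covariate, 150 with the cardiomyocyte score, 0 with the resting fibroblast score (in which the mitotic list's median was 3.50) and 2508 with the score as a continuous covariate. In the fit shared by both diets, 0 were called within controls and 81 within CKD libraries. Leaving out 1 library gave 274 (9179) to 2094 (9171), with 340, 459, 383 and 346 without 9174, 9177, 9182 and 9184; the 116 lower genes became 8 (9179) to 808 (9171). Without 9180 the 863 genes became 1337 with DESeq2, 1877 with limma-voom, 62 with the cardiomyocyte and 52 with the resting fibroblast score, 496 with the 13 libraries ranked again, and 531 (9175) to 1652 (9171) with 1 more library left out, with 571 and 559 without 9173 and 9179. In infarct libraries the 0 genes called became 72 with DESeq2. The cause of these changes was not tested.

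Signs turned for Myh6 (0.053) and Nppa (-0.57) with the cardiomyocyte score, for S100a9 with the resting fibroblast score (0.81), and for Nppa within CKD libraries (-1.10). Without 9180 they turned for Nppa with limma-voom (-0.026), for S100a9 with the cardiomyocyte score (0.94), and for Col1a1 (-0.14), Nppa (-0.68) and S100a9 (0.88) with the resting fibroblast score. Pearson's r of remote with infarct scores was -0.15 within controls, where Spearman's rho was 0.086. The difference in infarct score ran from 0.13 to 1.32 with each mouse left out. Of 35 list medians, 0 changed sign under each of the 2 scalings, 15 with the cardiomyocyte score and 12 with the resting fibroblast score (10 and 11 without 9180), among them MHC class II (0.31 to -0.61 and -1.70) and, with the fibroblast score, neutrophil genes (-1.34 to 1.67). No paired analysis was possible because the libraries set against each other come from different mice. Low libraries hold few reads of mitotic genes, which limits the precision of their folds.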
